A study of Mus musculus with 15 samples.

Results

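The genes described here are 10 transcripts that are used as readouts of neutrophil recruitment in mouse tissue: the CXCR2 chemokines Cxcl1, Cxcl2 and Cxcl5, the receptors Cxcr2 and Csf3r, and the leukocyte products S100a8, S100a9, Retnlg, Mmp9 and Clec4d. They were chosen by symbol, and each symbol matched 1 of the 55487 genes in the count table. All 10 were among the 19006 genes with enough counts to test. RNA-Seq was performed on conjunctiva, the mucosa that lines the eyelids and covers the white of the eye, from 15 WT mice of the strain that the labels write as BALC/c and the methods as female, age-matched BALB/c. Every mouse had been sensitized in the skin of the ear with MC903 (calcipotriol, a vitamin D analog that evokes skin inflammation resembling atopic dermatitis) together with the antigen OVA, so that the control group shares this sensitization. Eye drops then held PBS in 5 mice, for which the labels list no antibody (PBS group), or OVA in 5 mice given an isotype control antibody (isotype group) and in 5 mice given an antibody that blocks IL-4Rα, a mouse homologue of dupilumab (anti–IL-4Rα group). Because the PBS group differs from the isotype group both in the antigen and in the antibody injections, the isotype-to-PBS comparison cannot tell these apart.

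Neutrophils leave the blood along gradients of chemokines that carry the amino acids Glu-Leu-Arg before their CXC motif. In the mouse, Cxcl1, Cxcl2 and Cxcl5 belong to this class and signal through Cxcr2, and they are made by epithelium, fibroblasts, mast cells and macrophages. Csf3r is the receptor for G-CSF, the main growth factor of neutrophils. S100a8 and S100a9 encode the subunits of calprotectin, which fills the neutrophil cytosol and is also made by stressed epithelium. Retnlg is a resistin-like protein of granulocytes, Mmp9 is a gelatinase stored in neutrophil granules and secreted by epithelium and macrophages, and Clec4d (also called MCL) is a myeloid C-type lectin. None of the 10 is made by neutrophils alone, and in bulk tissue fewer cells of a type and less RNA per cell cannot be told apart.

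On GRCm38, the chemokine genes lie together on chromosome 5, with Cxcl5 at chr5:90759360-90761624, Cxcl1 at chr5:90891241-90893115 and Cxcl2 at chr5:90903871-90905938. S100a8 (chr3:90668978-90670035) and S100a9 (chr3:90692632-90695721) are neighbors on chromosome 3. The other members are Cxcr2 on chromosome 1, Mmp9 on chromosome 2, Csf3r on chromosome 4, Clec4d on chromosome 6 and Retnlg on chromosome 16. The exons of none of the 10 overlapped another annotated gene. Cxcl1, Cxcl2 and the unlisted ligand Cxcl3 are close paralogs, and how the counting treated reads shared between paralogs is not given in the sources used here.

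RefSeq promoter windows on GRCm38.p6 were found for 8 of the 10 members. The 250 bases before each start were searched on both strands for GGAATTTCC (core letters bound by NF-κB), TTCNNNGAA (a STAT palindrome), TTCNNNNGAA (the wider spacing preferred by STAT6, the factor that IL-4Rα activates) and GAGGAAGT (letters bound by PU.1, a myeloid factor). The chemokine promoters are printed because Cxcl1 and Cxcl2 held the same 9 letters of NF-κB, as did Cxcl3, and the Retnlg promoter because it held the STAT6 spacing in the member with the largest fold change. Each line is 120 bases of the plus strand, ending 31 bases before the RefSeq start, and capitals mark the match.
Cxcl1, chr5:90891095-90891214: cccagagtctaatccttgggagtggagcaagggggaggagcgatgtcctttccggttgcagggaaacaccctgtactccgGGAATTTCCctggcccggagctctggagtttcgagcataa
Cxcl2, chr5:90903749-90903868: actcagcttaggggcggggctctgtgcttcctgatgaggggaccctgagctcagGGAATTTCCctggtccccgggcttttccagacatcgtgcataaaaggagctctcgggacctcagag
Cxcl3, chr5:90785951-90786070: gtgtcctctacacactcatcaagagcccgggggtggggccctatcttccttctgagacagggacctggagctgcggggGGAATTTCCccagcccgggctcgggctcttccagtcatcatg
Retnlg, chr16:48872458-48872577: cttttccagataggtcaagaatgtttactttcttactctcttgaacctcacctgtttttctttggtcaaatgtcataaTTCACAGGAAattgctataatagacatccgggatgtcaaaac
The NF-κB letters lay at −70 to −62 in Cxcl1, −96 to −88 in Cxcl2 and −72 to −64 in Cxcl3, and 94 of 32851 windows of the same length (0.286%) held them. The STAT6 spacing lay at −72 to −63 in Retnlg and in 5.85% of all windows, and the PU.1 letters lay at −172 to −165 in S100a8 (on the opposite strand) and in 2.44% of all windows. The STAT palindrome, present in 7.02% of windows, was in none of the member windows, and S100a9, Csf3r, Cxcr2 and Clec4d held none of the 4 motifs. Such a match is a description of letters and not of a bound site.

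The libraries held 48622246 to 87745024 counts, and counts of the members per library ran from 15 for Retnlg and Clec4d to 4579 for S100a9. The label of neutrophil genes was set beside other genes used as neutrophil markers. Ly6g, the surface antigen by which mouse neutrophils are sorted, had 0 to 5 counts in any library, so that this defining marker was at or near the floor in all 3 groups. The granule genes Ngp, Elane and Camp had 0 to 3, 0 to 6 and 0 to 10 counts, whereas Prtn3 had 7 to 31 and Mpo 10 to 248, and Ltf and Lcn2, which gland and epithelium also secrete, were abundant (252 to 662 and 18.6 to 63.4 CPM). The neutrophil genes Stfa2l1 and Fpr1 had 0 to 49 and 3 to 25 counts, too few to test. Their mean CPM was 0.0723 and 0.0779 with PBS, 0.323 and 0.192 with isotype, and 0.0447 and 0.0957 with anti–IL-4Rα. Mmp8 and Trem1 are described below. The summed level of 9 neutrophil markers, 5 of which are members, was 28.1 to 53.5 CPM (counts per 1000000, normalized with TMM factors) with PBS, 59.5 to 118 CPM with isotype and 25.8 to 109 CPM with anti–IL-4Rα. The markers that are not members (Ly6g, Mpo, Elane and Mmp8) each had group means of at most 2.88 CPM. The sum therefore largely restates the member values and is no separate check of the label. Because the members are also expressed by other cells, the marker lists of those cells are given here. Macrophage and monocyte markers (8 genes) summed to 398 to 442, 444 to 781 and 516 to 814 CPM in the same order, with 5 of 8 called higher in the isotype group than in the PBS group and 0 of 8 between the OVA groups by edgeR (1 at an unadjusted p under 0.05, 1 by DESeq2 and 0 by voom). Stress keratins (Krt6a, Krt6b and Krt16) summed to 1861 to 2672, 3412 to 4989 and 1686 to 2664 CPM, with 3 of 3 called higher with OVA and 3 of 3 called lower with anti–IL-4Rα. Eosinophil markers summed to 2.51 to 3.43, 5.17 to 14.8 and 3.11 to 14.6 CPM, with the granule gene Epx at 3 or fewer counts in every library. Lacrimal acinar markers, chosen for the tear gland, ran from 136 to 3712, 167 to 2570 and 251 to 11030 CPM, with medians of 385, 748 and 7758 CPM. Of these, Prol1, Dcpp1, Dcpp2 and Dcpp3 had 3 or fewer counts in every library, and Aqp5 had at least 112 CPM in each. Among the 5 tested, edgeR called 1 higher with anti–IL-4Rα than with isotype and 0 for isotype against PBS. Skeletal muscle markers ran from 5593 to 9633, 3338 to 5086 and 4434 to 6581 CPM. All 5 were called lower with isotype than with PBS, and 0 between the OVA groups. The part that any of these cell types has in the results below was not tested.

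In OVA-challenged mice given isotype, 6 of the 10 genes rose over the PBS group: Retnlg, Cxcl2, Csf3r, Clec4d, Mmp9 and Cxcr2. Fold changes among the 6 ran from 1.42-fold for Cxcr2 to 10.2-fold for Retnlg. No member was called lower, and the 4 others had fold changes above 1. Over all genes tested, 9.53% were called higher and 7.49% lower in this comparison, at an adjusted p under 0.05 in edgeR's quasi-likelihood test with Benjamini-Hochberg adjustment. The median log2 fold change was 1.36 over the members and −0.01 over all genes tested. For 5 members (Retnlg, Cxcl2, Csf3r, Cxcl1 and Cxcl5), the lowest isotype value exceeded the highest PBS value, a separation that 6.85% of all genes showed. None was separated in the other direction, as 5.43% of all genes were. Isotype replicate 1 was the lowest isotype library for Csf3r, Cxcl2, Retnlg, Mmp9, Clec4d and both S100 genes, and anti–IL-4Rα replicate 4 was the highest of its group for the chemokines and both S100 genes. Leaving out the former gave 6 calls, with Cxcl1 in place of Cxcr2, and leaving out the latter gave 8, with Cxcl1, Cxcl5 and S100a9 added and Cxcr2 lost.

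With anti–IL-4Rα, 3 of the 10 genes fell below the isotype group, namely Mmp9, Csf3r and Retnlg, and none rose. The fold changes were 2.75-fold, 2.88-fold and 3.12-fold lower. Of all genes tested, 8.13% were called lower here and 6.73% higher. The median log2 fold change was −1.14 over the members and 0.01 over all genes. Of the chemokines, Cxcl2 had a log2 fold change of −1.11, Cxcl5 of −0.25 and Cxcl1 of 0.15, and none of these passed the test. Mmp9, Csf3r and Cxcr2 were lower in every anti–IL-4Rα library than in every isotype library, as were 4.96% of all genes. No member was higher in every library, against 2.35% of all genes. Without isotype replicate 1 there were 5 calls, Clec4d and Cxcl2 being added, and without anti–IL-4Rα replicate 4 there were 3, with S100a9 in place of Retnlg.

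Between the anti–IL-4Rα and PBS groups, 1 of 10 members was called, Cxcl2, which was 3.76-fold higher with OVA and antibody. Among all genes tested, 2.28% were called higher and 1.44% lower. The median log2 fold change of the members was 0.38, against 0.00 over all genes. This comparison shares the PBS libraries with the first and the anti–IL-4Rα libraries with the second, so the 3 are not independent. Csf3r and Cxcl2 were higher in each anti–IL-4Rα library than in each PBS library (2.98% of all genes) and Mmp9 was lower in each (3.12%). Without anti–IL-4Rα replicate 4 the call of Cxcl2 was lost and S100a9 was called lower, and without isotype replicate 1 Retnlg was called higher as well as Cxcl2.

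**Figure D1:**
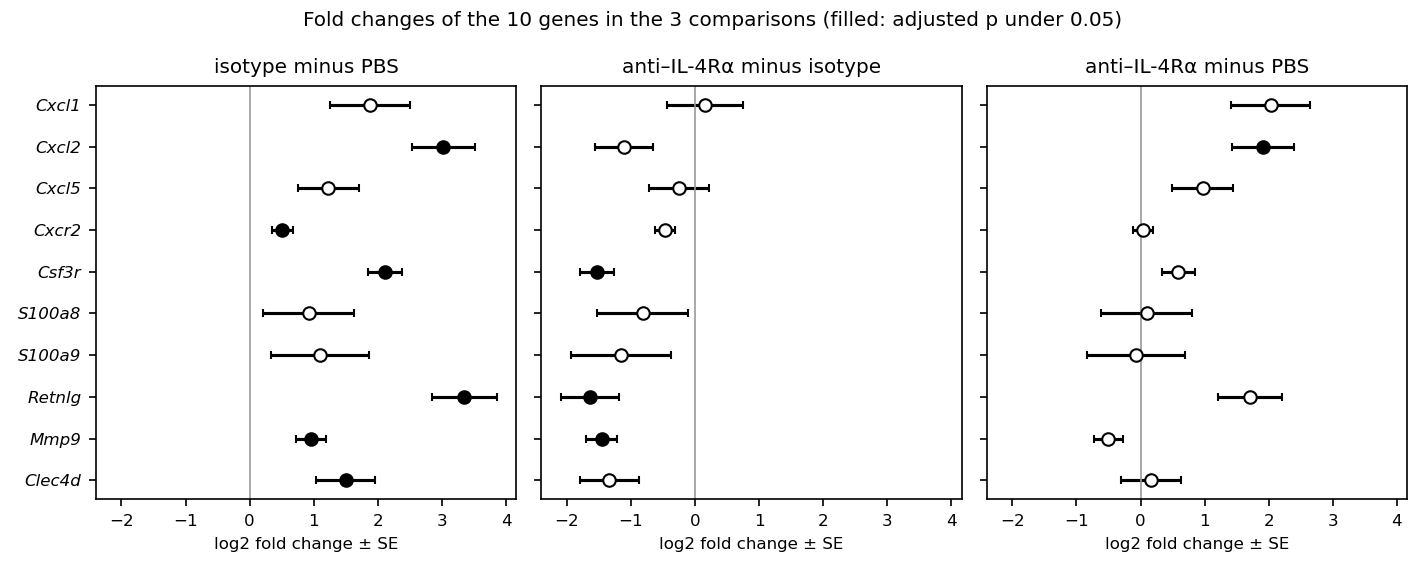
Log2 fold changes (x axis) with SE bars for the 10 genes (rows) in 3 comparisons (panels), with filled points at an adjusted p under 0.05. With OVA, 6 points are filled, the farthest right being Retnlg at 3.35. With anti–IL-4Rα against isotype, Mmp9, Csf3r and Retnlg are filled, and Cxcl1 lies at 0.15. Against PBS, Cxcl2 alone is filled.

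Cxcl1, the mouse counterpart of the GRO chemokines, read 2.01, 2.31, 2.62, 1.43 and 1.67 CPM in PBS replicates 1 to 5, then 4.52, 7.41, 18.3, 2.83 and 3.86 CPM in isotype replicates 1 to 5 and 2.75, 2.31, 4.56, 18.9 and 12.8 CPM in the anti–IL-4Rα replicates. All isotype libraries lay above the PBS range, and the anti–IL-4Rα group held both a library within that range and the highest value of all. Its log2 fold change over PBS was 1.88 ± 0.62 (SE) for isotype, with an edgeR adjusted p of 0.0511, and 2.03 ± 0.62 for anti–IL-4Rα, with an adjusted p of 0.0764. Between the OVA groups it was 0.15 ± 0.59, with an edgeR adjusted p of 0.881. The isotype comparison passed the threshold in 5 of 15 fits that each left out 1 library (isotype replicates 1 and 4 and anti–IL-4Rα replicates 1, 2 and 4), over adjusted p values of 0.0378 to 0.166, and in 2 of 9 alternatives, DESeq2 (0.0157) and the fit to those groups alone (0.0327). Between the OVA groups the log2 fold change ran from −0.41 without anti–IL-4Rα replicate 4 to 0.81 without isotype replicate 3, and its sign also turned on omission of replicate 4 or 5 of the isotype group or replicate 5 of the anti–IL-4Rα group.

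Cxcl2, which encodes the MIP-2 chemokine of macrophages and mast cells, read 0.839, 0.611, 0.602, 0.669 and 0.387 CPM in the PBS libraries, 1.78, 4.28, 9.70, 4.23 and 5.42 CPM in the isotype libraries, and 1.43, 1.24, 1.17, 4.69 and 3.33 CPM in the anti–IL-4Rα libraries. No OVA-challenged library of either group overlapped the PBS range. Anti–IL-4Rα replicates 4 and 5 lay within the isotype range and the other anti–IL-4Rα replicates lay below it. Cxcl2 rose 8.13-fold with OVA (log2 3.02 ± 0.49, edgeR adjusted p = 0.00220), a call kept in all 15 fits without 1 library and all 9 alternatives. Its level with anti–IL-4Rα was higher than in the PBS group (log2 1.91 ± 0.48, edgeR adjusted p = 0.0431), but this call remained in 4 of 15 fits, each lacking 1 of isotype replicates 1 to 3 or replicate 3 of the anti–IL-4Rα group, and the adjusted p ran up to 0.103. It remained in 5 of 9 alternatives and was lost without a filter, with the linear model, with the replicate block and with the lacrimal covariate, with adjusted p values up to 0.203. The difference between the OVA groups (log2 −1.11 ± 0.45) had an edgeR adjusted p of 0.103, and of 0.0405 without isotype replicate 1.

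Cxcl5, also known as LIX and made largely by epithelium, read 2.87, 2.75, 4.28, 1.26 and 3.53 CPM with PBS, 4.96, 10.8, 8.58, 4.37 and 5.65 CPM with isotype, and 3.09, 2.34, 3.76, 15 and 4.82 CPM with anti–IL-4Rα. The lowest isotype library was just above the highest PBS library. A single anti–IL-4Rα library, replicate 4, held the highest value of the 15, while the others were at or near the PBS range. Cxcl5 did not pass edgeR's test in any comparison, with a log2 fold change of 1.23 ± 0.48 for isotype against PBS (edgeR adjusted p = 0.0906). That comparison passed with DESeq2 (adjusted p = 0.0350) and in the fit to those groups alone (adjusted p = 0.0406), as 2 of 9 alternatives. Without anti–IL-4Rα replicate 4 the adjusted p of that comparison was 0.0247, and the log2 fold change between the OVA groups was −0.98 (adjusted p = 0.0956).

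**Figure D2:**
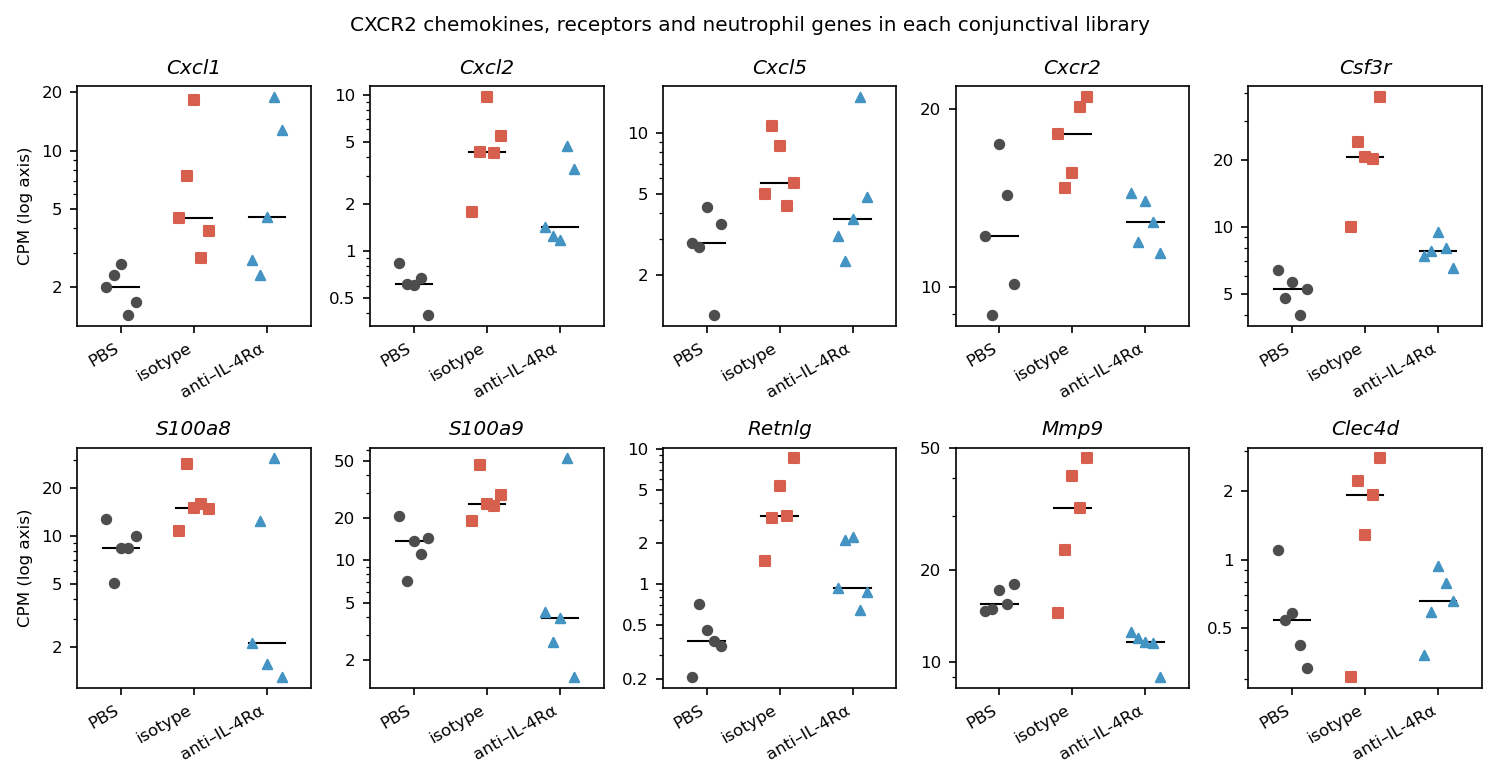
CPM of each gene (log axis, a scale per panel) in 15 libraries, with 1 point per library in replicate order within each group and a line at the group median. Csf3r in the isotype group lies above both other groups, Mmp9 with anti–IL-4Rα lies below the PBS group, and with anti–IL-4Rα Cxcl1 and Cxcl5 each have libraries within the PBS range and libraries within or above the isotype range.

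Cxcr2, the receptor shared by these chemokines, read 12.2, 8.94, 17.5, 14.3 and 10.1 CPM with PBS, 18.2, 14.7, 15.6, 20.2 and 21 CPM with isotype, and 14.4, 11.9, 14, 12.9 and 11.4 CPM with anti–IL-4Rα. PBS replicate 3 lay within the isotype range, and the anti–IL-4Rα libraries lay just under it. Cxcr2 rose 1.42-fold with OVA (log2 0.51 ± 0.16, edgeR adjusted p = 0.0439), a call that remained in 3 of 15 fits without 1 library (replicate 3 of the PBS or anti–IL-4Rα group, or replicate 2 of the isotype group) and in 5 of 9 alternatives. The log2 fold change with anti–IL-4Rα was −0.47 ± 0.16 against isotype (edgeR adjusted p = 0.0617, passed in 3 of 9 alternatives) and 0.04 ± 0.16 against PBS (adjusted p = 0.930).

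Csf3r, the G-CSF receptor, read 6.39, 4.80, 5.63, 4.0 and 5.27 CPM in the PBS libraries, 9.95, 24.1, 20.5, 20.1 and 38.3 CPM in the isotype libraries, and 7.39, 7.82, 9.44, 8.05 and 6.54 CPM in the anti–IL-4Rα libraries. The 3 groups did not overlap, although isotype replicate 1 was close to the anti–IL-4Rα range. Csf3r rose 4.33-fold with OVA (log2 2.11 ± 0.26, edgeR adjusted p = 0.000596) and was 2.88-fold lower with anti–IL-4Rα than with isotype (log2 −1.53 ± 0.26, adjusted p = 0.00479). Both calls were kept in 15 of 15 fits without 1 library and in 9 of 9 alternatives. Against PBS the anti–IL-4Rα group had a log2 fold change of 0.59 ± 0.26, with an edgeR adjusted p of 0.186.

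S100a8 and S100a9, the calprotectin subunits, were dominated by the spread within the anti–IL-4Rα group. S100a8 read 12.8, 5.07, 8.32, 8.33 and 9.89 CPM with PBS, 10.7, 28.1, 14.8, 15.9 and 14.7 CPM with isotype, and 2.11, 12.4, 1.57, 30.5 and 1.30 CPM with anti–IL-4Rα. Anti–IL-4Rα replicates 1, 3 and 5 were therefore below every library of the other groups, and replicate 4 was the highest of all. S100a9 read 20.7, 7.13, 13.8, 11.1 and 14.3 CPM with PBS, 18.8, 46.9, 24.8, 24.3 and 28.9 CPM with isotype, and 4.30, 2.64, 3.91, 52.3 and 1.51 CPM with anti–IL-4Rα. Here 4 of the 5 anti–IL-4Rα libraries lay below the PBS range and replicate 4 again held the maximum.

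Neither gene passed edgeR's test in any comparison. The log2 fold change for isotype against PBS was 0.92 ± 0.71 for S100a8 and 1.10 ± 0.77 for S100a9, with edgeR adjusted p values of 0.392 and 0.348. Between the OVA groups it was −0.82 ± 0.71 for S100a8 (edgeR adjusted p = 0.431) and −1.16 ± 0.78 for S100a9 (adjusted p = 0.307). S100a9 passed between the OVA groups with voom (log2 −2.25, adjusted p = 0.0268) and for isotype against PBS in the fit to those groups alone (adjusted p = 0.0387). In the fit over the 3 groups, the calls of S100a9 turned on 1 library. Without anti–IL-4Rα replicate 4, S100a9 was lower with anti–IL-4Rα than with isotype (log2 −3.21, edgeR adjusted p = 0.000770) and than with PBS (log2 −2.12, adjusted p = 0.0235), and higher with isotype than with PBS (adjusted p = 0.0361). The log2 fold change for isotype against PBS stayed at 1.10. The omitted library is in neither of those groups, but the model estimates 1 spread from all libraries. For S100a8 the same omission gave a log2 fold change of −1.95 between the OVA groups (edgeR adjusted p = 0.0674).

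The subunits kept a narrow ratio to each other in most libraries. CPM of S100a9 over S100a8 was 1.34 to 1.66 with PBS and 1.53 to 1.97 with isotype. With anti–IL-4Rα the ratio was 2.04, 0.213, 2.48, 1.71 and 1.16. Replicate 2 stood out from the other 14 libraries, with 821 counts of S100a8 and 175 of S100a9, where every other library had more S100a9 than S100a8. Where within the gene these 821 counts lie was not analysed here.

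**Figure D3:**
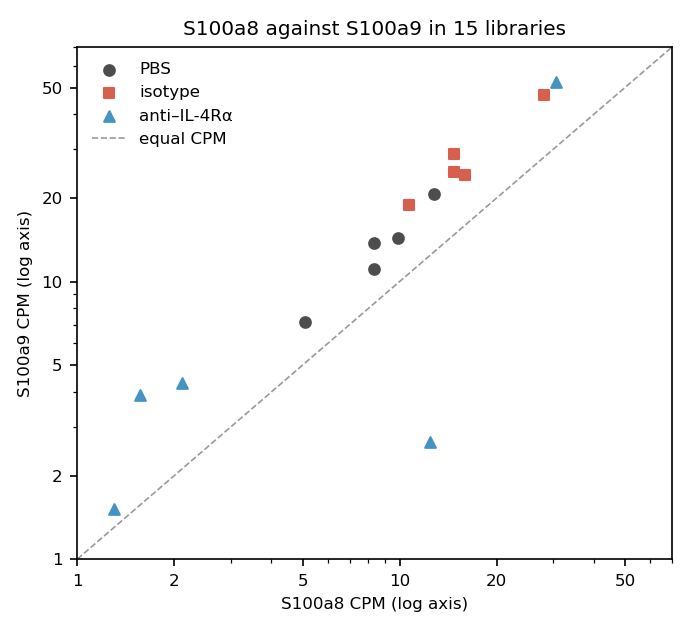
S100a8 (x axis) against S100a9 (y axis), both in CPM on log axes, for 15 libraries, with a dashed line at equal CPM. Along the upper diagonal lie 14 libraries, 3 anti–IL-4Rα libraries at its lower end and anti–IL-4Rα replicate 4 at its upper end. Anti–IL-4Rα replicate 2 lies below the line, at a ratio of 0.213.

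Retnlg, the resistin-like gamma protein, had the largest fold change of the 10 with OVA and the fewest counts together with Clec4d. It read 0.206, 0.713, 0.460, 0.382 and 0.351 CPM in the PBS libraries, 1.47, 3.08, 5.30, 3.20 and 8.49 CPM in the isotype libraries, and 0.937, 2.11, 2.24, 0.642 and 0.874 CPM in the anti–IL-4Rα libraries. The isotype and PBS libraries were apart, and the anti–IL-4Rα libraries ran from within the PBS range to within the isotype range. Retnlg rose 10.2-fold (log2 3.35 ± 0.51, edgeR adjusted p = 0.00161), in 15 of 15 fits without 1 library. It fell 3.12-fold with anti–IL-4Rα (log2 −1.64 ± 0.46, edgeR adjusted p = 0.0332), a call lost on leaving out replicate 2, 3 or 5 of the isotype group or replicate 1, 4 or 5 of the anti–IL-4Rα group, when the adjusted p reached 0.0827. It was kept in 6 of 9 alternatives and lost with the linear model on log2(FPKM + 1), in the fit to those groups alone and with the lacrimal covariate, at adjusted p values of 0.0515, 0.0768 and 0.117. Against PBS the anti–IL-4Rα group had a log2 fold change of 1.71 ± 0.50 with an adjusted p of 0.0664.

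Mmp9, the gelatinase, read 14.7, 14.9, 17.2, 15.5 and 18 CPM with PBS, 14.5, 23.2, 40.5, 32.0 and 46.3 CPM with isotype, and 12.6, 12, 11.7, 11.6 and 8.98 CPM with anti–IL-4Rα. Isotype replicate 1 was at the PBS level, the other isotype libraries were above it, and the anti–IL-4Rα libraries were all below the lowest value of both other groups. Mmp9 rose 1.95-fold with OVA (log2 0.96 ± 0.23, edgeR adjusted p = 0.0149) and was 2.75-fold lower with anti–IL-4Rα than with isotype (log2 −1.46 ± 0.24, adjusted p = 0.00380). Its level under the antibody was on the far side of the PBS group, with a log2 fold change of −0.50 ± 0.23 against PBS that did not pass the test (edgeR adjusted p = 0.217). The fit to those groups alone gave an adjusted p of 0.0350. The linear model on log2(FPKM + 1) lost the rise with OVA, at an adjusted p of 0.0507.

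Clec4d, the lectin receptor that signals with Fcer1g, read 1.10, 0.543, 0.584, 0.421 and 0.334 CPM with PBS, 0.306, 2.22, 1.28, 1.92 and 2.78 CPM with isotype, and 0.383, 0.588, 0.933, 0.791 and 0.661 CPM with anti–IL-4Rα. Isotype replicate 1 held the lowest value of the 15 libraries, and the other isotype replicates held the highest. Clec4d rose 2.83-fold with OVA (log2 1.5 ± 0.46, edgeR adjusted p = 0.0374). The call remained in 7 of 15 fits, was lost without any one of PBS replicates 2 to 5 or isotype replicates 2 to 5, and had an adjusted p of 0.00370 without isotype replicate 1. It was kept in 5 of 9 alternatives and lost without a filter (0.0539), in the fit to those groups alone (0.0704), with the linear model (0.0769) and with the replicate block (0.132). Between the OVA groups the log2 fold change was −1.34 ± 0.46 (edgeR adjusted p = 0.0617), with an adjusted p of 0.00912 without isotype replicate 1, of 0.0236 with DESeq2, and also under 0.05 without anti–IL-4Rα replicate 3.

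**Figure D4:**
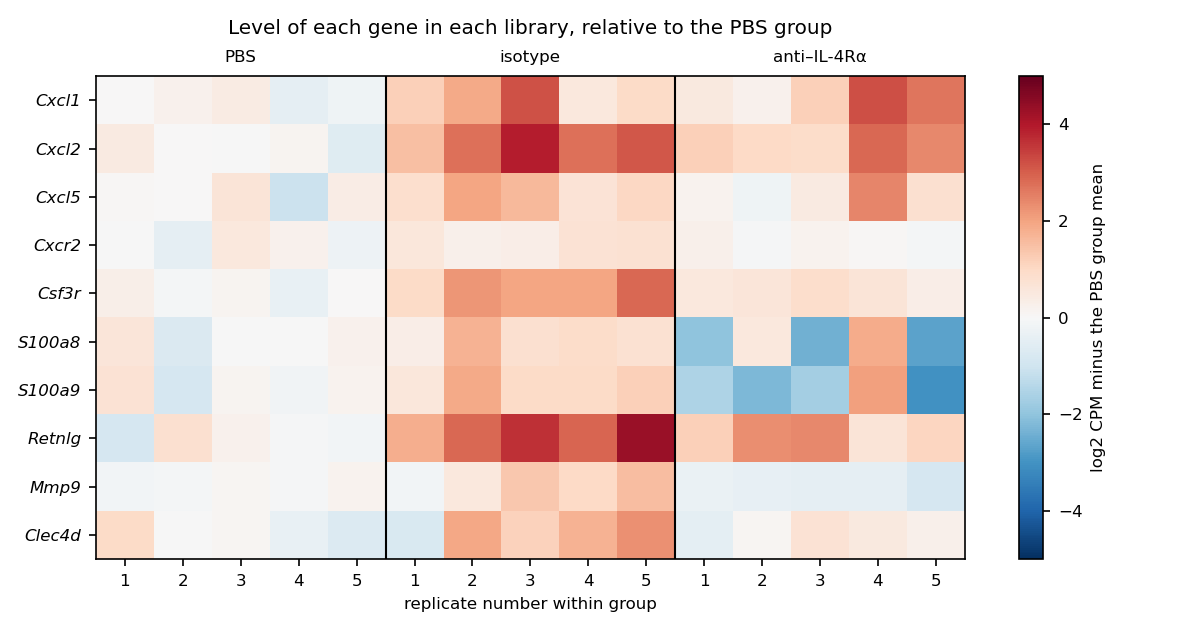
Log2 CPM of each gene (rows) in each library (columns, by group and replicate number) minus the mean of the PBS group, from blue (lower) to red (higher). Isotype replicate 1 is paler than the other isotype libraries in most rows. Anti–IL-4Rα replicate 4 is red for both S100 genes and all 3 chemokines but not for Csf3r, Retnlg, Mmp9 or Clec4d to the degree of the isotype group.

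The members also differed in abundance per length. In the PBS group, S100a9 had the highest mean CPM per kilobase of exon (25.7), followed by S100a8 (12.8), Mmp9 (4.54) and Cxcr2 (4.14). Cxcl5 (1.58), Csf3r (1.45) and Cxcl1 (1.07) came next, and Retnlg (0.713), Clec4d (0.373) and Cxcl2 (0.300) were lowest. In the isotype group S100a9 (55.0) and S100a8 (24.3) were again first, with Mmp9 (8.84), Retnlg (7.26), Csf3r (6.27) and Cxcr2 (5.88) next, followed by Cxcl1 (3.94), Cxcl5 (3.69), Cxcl2 (2.46) and Clec4d (1.06). In the anti–IL-4Rα group the order began with S100a9 (24.8) and S100a8 (13.8), whose CPM had an SD larger than the mean (12.9 ± 22.0 and 9.58 ± 12.6 CPM, SD, n = 5), followed by Cxcl1 (4.40), Cxcr2 (4.24), Mmp9 (3.22) and Cxcl5 (3.12). Retnlg (2.30), Csf3r (2.18), Cxcl2 (1.15) and Clec4d (0.420) were lowest. Of the 9 pairs of neighbors in each order, the ranges of mean ± SD overlapped for 7 with PBS, 7 with isotype and 8 with anti–IL-4Rα. The exceptions were S100a8 over Mmp9 and Cxcr2 over Cxcl5 with PBS, S100a9 over S100a8 and S100a8 over Mmp9 with isotype, and Cxcr2 over Mmp9 with anti–IL-4Rα.

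Members were compared within groups, after the group means were removed, over all 15 libraries and 29 relations (9 genes with Csf3r, and 10 genes each with a score of the stress keratins and a score of the lacrimal markers). Csf3r and Clec4d were related, with Pearson's r = 0.86 (permutation p = 0.00108, adjusted p = 0.0313) and Spearman's rho = 0.78 (permutation p = 0.00218, adjusted p = 0.0632). Without isotype replicates 1 and 5, the libraries farthest from the median Csf3r, r was 0.64. Csf3r and Mmp9 had r = 0.76 (permutation p = 0.0471, adjusted p = 0.199) and rho = 0.33 (permutation p = 0.295, adjusted p = 0.578), and r fell to 0.02 without those libraries, so this relation rests on them. Csf3r and S100a9 had r = 0.27 (permutation p = 0.107, adjusted p = 0.259) and rho = 0.62 (permutation p = 0.00943, adjusted p = 0.122). The relation of Cxcl5 with the keratin score, r = 0.72 (permutation p = 0.00930, adjusted p = 0.135) and rho = 0.64 (permutation p = 0.0223, adjusted p = 0.130), did not pass the adjustment, and r was 0.49 without anti–IL-4Rα replicates 2 and 4. Cxcl1 with the keratin score had r = 0.62 (permutation p = 0.0456, adjusted p = 0.199) and rho = 0.62 (permutation p = 0.0375, adjusted p = 0.181). Only Csf3r with Clec4d passed the adjustment, by Pearson's r. No relation with the lacrimal score passed the adjustment. By rank the strongest were Csf3r, rho = −0.70 (permutation p = 0.0127, adjusted p = 0.122), and Clec4d, rho = −0.66 (permutation p = 0.0175, adjusted p = 0.127). Pearson's r was −0.48 for Csf3r (permutation p = 0.106, adjusted p = 0.259) and −0.59 for Clec4d (permutation p = 0.0363, adjusted p = 0.199). Without isotype replicate 2 and anti–IL-4Rα replicate 3, r was −0.44 and −0.55.

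The genes most like Csf3r, S100a8 and Cxcl5 by Spearman's rho of centered log2 CPM over the 15 libraries were listed by rank among all genes tested. For Cxcl5 they were Pbdc1 (0.91), Elavl1 (0.90), Bub3 (0.89), Rrn3 (0.88) and the chemokine Cxcl1 (0.88). For Csf3r they were C920009B18Rik (0.92), Exo5 (0.87), Erap1 (0.84), Cdc26 (0.83) and Nfkbid (0.81), and for S100a8 they were Gtf2h5 (0.85), Chil1 (0.84), Fcf1 (0.82), Eif2b1 (0.80) and Mfsd3 (0.80). C920009B18Rik had a mean of 0.187 CPM. All of these are the highest values picked from all genes tested, over only 15 libraries. What unrelated genes would reach under such a search was not tested.

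The other ligands and receptors of this axis gave no calls. Of Cxcl3, Cxcl15, Ppbp, Cxcr1 and Ackr1, 4 were tested (Cxcl15 was too low), and edgeR called 0 in each comparison. At an unadjusted p under 0.05 there was 1 for isotype against PBS, 0 between the OVA groups and 1 for anti–IL-4Rα against PBS. DESeq2 called 1, 0 and 0, and voom 0 in all 3. Cxcl3, whose promoter holds the same letters as Cxcl1 and Cxcl2, had a log2 fold change of 1.38 ± 0.55 with OVA (edgeR adjusted p = 0.0981) and −0.06 ± 0.53 between the OVA groups (adjusted p = 0.947). Ppbp, the platelet basic protein, had 1.52 ± 0.78 and −1.67 ± 0.79, with edgeR adjusted p values of 0.194 and 0.158.

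CXC chemokines without the Glu-Leu-Arg letters bind other receptors and draw mainly lymphocytes. Of 8 tested, 2 rose with OVA, the CXCR3 ligands Cxcl10 (log2 2.32 ± 0.54, edgeR adjusted p = 0.0125) and Cxcl11 (log2 2.14 ± 0.52, adjusted p = 0.0155), and the B cell chemokine Cxcl13 fell (log2 −0.81 ± 0.21, adjusted p = 0.0198). With anti–IL-4Rα, Cxcl13 was higher than in the isotype group (log2 1.2 ± 0.21, edgeR adjusted p = 0.00537), the only call of 8. Against PBS edgeR called 0 of 8, as did DESeq2 and voom, and 0 had an unadjusted p under 0.05. The median log2 fold change of these 8 was 0.19 with OVA and −0.15 between the OVA groups.

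Among 18 other neutrophil genes, 12 had enough counts to test. With OVA, 3 rose and 1 fell. Trem1, an amplifying receptor of neutrophils and monocytes, rose by log2 2.66 ± 0.51 (edgeR adjusted p = 0.00515). Ctsg, the granule protease cathepsin G that mast cells also make, rose by log2 2.28 ± 0.43 (adjusted p = 0.00472), and Mmp8, neutrophil collagenase, rose by log2 1.37 ± 0.35 (adjusted p = 0.0180). Il1r2, the decoy IL-1 receptor, fell (log2 −0.35 ± 0.10, adjusted p = 0.0334). Between the OVA groups 2 fell and none rose, with Trem1 at log2 −3.02 ± 0.53 (edgeR adjusted p = 0.00537) and Mmp8 at −2.46 ± 0.39 (adjusted p = 0.00371). These are low transcripts: Mmp8 had 1 to 44 counts per library, Ctsg 2 to 51 and Trem1 5 to 185. Against PBS, edgeR called 0 of 12, with 3 at an unadjusted p under 0.05, 0 by DESeq2 and 1 by voom. The median log2 fold change of the 12 was 0.32 with OVA, −0.05 between the OVA groups and 0.36 against PBS. Mpo, Ltf and Lcn2 were called in no comparison.

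Cytokines that induce CXCR2 ligands or granulopoiesis, with their receptors, numbered 13, of which 12 were tested. With OVA 5 rose: Il6 (log2 4.04 ± 0.57, edgeR adjusted p = 0.00108), Il17c (2.78 ± 0.70, adjusted p = 0.0178), Il1b (2.02 ± 0.39, adjusted p = 0.00547), Tnf (1.15 ± 0.32, adjusted p = 0.0253) and Il17ra (0.38 ± 0.08, adjusted p = 0.00829). Tnf was named as the remaining one of the 5 after its value was seen. Of the 12, 9 had positive and 3 negative log2 fold changes with OVA. Il17a had −2.89 ± 0.99 (edgeR adjusted p = 0.0598), at 0 to 42 counts per library. Il17f, too low to test at 0 to 16 counts, had a mean of 0.182 CPM with PBS and 0.0309 CPM with isotype. Both were also named after their values were seen. With anti–IL-4Rα 3 were lower than with isotype, Il6 (log2 −2.29 ± 0.50, edgeR adjusted p = 0.0141), Il1b (−1.81 ± 0.39, adjusted p = 0.0130) and Il17ra (−0.29 ± 0.08, adjusted p = 0.0316). Against PBS edgeR called 0 of 12, with 5 at an unadjusted p under 0.05, 5 by DESeq2 and 0 by voom. Il6 was scarce, at 2 to 159 counts. Csf3, the G-CSF that binds Csf3r, had 31 to 143 counts and a log2 fold change of 1.21 ± 0.38 with anti–IL-4Rα against PBS (edgeR adjusted p = 0.0815).

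Of 8 partners of the members (binding proteins, co-receptors and regulators), 4 rose with OVA and 3 of these were lower with anti–IL-4Rα than with isotype. Timp1, the inhibitor that binds MMP-9, lay at 2.24 to 3.83 CPM with PBS and at 4.62 to 31.1 CPM with isotype (log2 2.75 ± 0.37, edgeR adjusted p = 0.000929) and was at 3.09 to 4.47 CPM with anti–IL-4Rα (log2 −2.51 ± 0.37 against isotype, adjusted p = 0.00221). Fcer1g, the signaling chain of Clec4d, rose by log2 1.22 ± 0.20 (edgeR adjusted p = 0.00215) and was lower by log2 −0.65 ± 0.19 with anti–IL-4Rα (adjusted p = 0.0404). Socs3, which restrains Csf3r signaling, rose by log2 0.75 ± 0.19 (edgeR adjusted p = 0.0199) and was lower by log2 −0.70 ± 0.19 (adjusted p = 0.0315). Clec4n (Dectin-2) rose by log2 0.95 ± 0.28 (edgeR adjusted p = 0.0317) and was not called lower. Against PBS edgeR called 0 of 8, with 2 at an unadjusted p under 0.05, 2 by DESeq2 and 1 by voom.

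Of the resistin-like paralogs of Retnlg, Retnla, a product of IL-4-stimulated macrophages, rose with OVA by log2 1.5 ± 0.37 (edgeR adjusted p = 0.0171) and had a log2 fold change of −0.67 ± 0.37 between the OVA groups (adjusted p = 0.219). Retn had −0.44 ± 0.28 with OVA (edgeR adjusted p = 0.287), and Retnlb was too low to test, with at most 3 counts. Retnla shares sequence with Retnlg, and the split of shared reads is not known.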

How the data were processed

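RNA-Seq libraries of conjunctiva from 15 mice in 3 groups of 5 were analyzed, with groups and replicate numbers taken from the labels. The authors deposited estimated counts per gene, not scaled for depth. To make them, they trimmed adaptors, filtered reads by quality and mapped read pairs (Omicsoft Array Studio, mouse B38, Ensembl gene model). The methods report uniquely mapped pairs and do not say whether pairs with several matches were counted. The counting method and its use of strand are not given in the sources used here. The methods mention outliers without naming samples, and none was left out.

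Counts were rounded. Genes reaching 10 counts in 5 or more libraries were tested with edgeR 4.0.16 in R 4.3.3 (TMM, quasi-likelihood, 1 model over 3 groups, two-sided, Benjamini-Hochberg over all genes tested). Genes were called at an adjusted p under 0.05 with no fold threshold. Each SE was the absolute fold change over the root of F, and log2 CPM used a prior count of 2. Names and exon lengths came from GENCODE M21, which matched 55141 gene identifiers and left 346 unmatched. Correlations used 100000 permutations within groups. Labels do not say that libraries come from separate cages or days, so p values measure the spread between these libraries. On data simulated for isotype against PBS (18840 genes), edgeR recovered 179 of 195 changed genes with 6 false calls among 185. The changes put in all had the same size, larger than those of Cxcr2, Mmp9 and Clec4d with OVA. Counts were drawn independently for each gene. The simulation therefore does not give the recovery or error rate of the calls in these libraries.

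All 10 members were named in every comparison. Of each list, at most 4 genes were named, those with the lowest unadjusted p. The 5 genes most like S100a8, Csf3r and Cxcl5 were named too. Levels of other listed genes are given where a marker or a member's partner is described. Tnf, Il17a and Il17f were named beyond this rule. Members and lists were chosen with earlier results of these data known. Alternatives were upper quartile factors, DESeq2 1.42.0, voom with quality weights in limma 3.58.1, other filters, a linear model on log2(FPKM + 1), a replicate block, 2-group fits, a lacrimal covariate and leaving out each library.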

Additional observations from a re-analysis of the deposited data

Results flagged for a closer look

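Each of the 30 sets of 5 libraries (10 genes in 3 groups) was checked for a library whose gap to its nearest neighbor, divided by the range of the group, was above Dixon's critical value of 0.71. There were 3 such sets, all in the anti–IL-4Rα group. Chance flags about 1 in 20 sets where values are normally distributed. The CPM values were not log-transformed for this check, so that rate need not hold here. Whether the flags exceed chance was not tested. S100a9 in replicate 4, at 52.3 CPM, had a gap of 0.945 of the range. Cxcl5 in the same replicate, at 15 CPM, had a gap of 0.805. Mmp9 in replicate 5, at 8.98 CPM, was the low exception with a gap of 0.727. In replicate 4, Cxcl1 (18.9 CPM) and S100a8 (30.5 CPM) were also the highest of the 15 libraries without passing the criterion, whereas Csf3r (8.05 CPM) and Retnlg (0.642 CPM) were not raised above the rest of its group.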

How the results depend on the processing

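Of the 720 fold changes of single members under the alternatives, 618 kept direction and call, 53 lost the call, 30 gained one and 19 reversed. The main fit called 6, 3 and 1 of the 10 members in the 3 comparisons, so most of these values had no call to lose. Members called for isotype against PBS went from 6 to 3 with the linear model on log2(FPKM + 1), a scale that compresses low genes, to 8 with DESeq2 (Cxcl1 and Cxcl5 added) and to 7 in the 2-group fit (Cxcl1, Cxcl5 and S100a9 added, Cxcr2 and Clec4d lost), with 4 to 6 under the others. Those between the OVA groups went from 3 to 5 with DESeq2 and 5 with voom, and to 2 with the linear model and the lacrimal covariate (Retnlg lost); the 2-group fit called 3, with Cxcr2 in place of Retnlg. Those for anti–IL-4Rα against PBS went from 1 to 3 with DESeq2 and in the 2-group fit, and to 0 without a filter, with the linear model, with the replicate block and with the lacrimal covariate. Calls among all genes also moved with these settings. For isotype against PBS (3235) they went to 4273 with DESeq2, 2742 with the linear model and 2571 in the 2-group fit. Between the OVA groups (2826) they went to 4023 with DESeq2, 3873 with voom and 2008 with the linear model. They fell there to 1749 without a filter, 675 in the 2-group fit and 647 with the lacrimal covariate. For anti–IL-4Rα against PBS (707) they went to 1966 with DESeq2, 2318 with voom and 532 in the 2-group fit. They fell there to 327 without a filter, 294 with the linear model and 86 with the lacrimal covariate. Upper quartile factors turned 1812 higher and 1423 lower calls for isotype against PBS into 1479 and 1844, and the linear model gave 1166 and 1576. The cause was not tested. Same-numbered libraries did not as a rule deviate together (correlations of −0.38 to 0.45, over 0.1 in 4 of 15 pairs, and 4 of 15 libraries correlated best with their own number). No pairing by number was evident, but this check cannot exclude a shared cage or day. The replicate block gave 5, 3 and 0 called members, and 2115, 1859 and 312 called genes, in the 3 comparisons.

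Leaving out 1 library gave 4 to 8 members called for isotype against PBS, 2 to 5 between the OVA groups and 0 to 2 for anti–IL-4Rα against PBS, and 1863 to 3936, 882 to 4206 and 82 to 2029 genes. The members that reversed were as follows. Against PBS, S100a8 (log2 0.10) had −0.90 with voom, −0.77 with the linear model, −0.76 with the replicate block and −1.02 to 0.38 without 1 library. S100a9 (log2 −0.07) had 0.02 with the lacrimal covariate and −2.12 to 0.22 without 1 library, and Cxcr2 (log2 0.04) had −0.07 to 0.18. Between the OVA groups Cxcl1 had −0.41 to 0.81. Counts in the lowest library were 15 for Retnlg, 15 for Clec4d and 22 for Cxcl2; the effect of depth on the calls was not tested.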
